A study of Mus musculus with 10 samples.

Results

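The CIDE and perilipin genes encode proteins that sit on lipid droplets, the organelles in which cells store triglyceride and sterol esters. Perilipins coat the droplet and control the access of lipases, while CIDE proteins gather at the contact between droplets and move lipid from the smaller into the larger. In the mouse, Cidea and Cidec are best known from brown and white fat and Cideb from liver, Plin1 and Plin4 are mainly adipocyte genes, Plin5 belongs to oxidative tissues, and Plin2 and Plin3 are expressed widely. In the islet, Plin2 is the perilipin studied most often in beta cells loaded with fatty acids.

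All 8 family members, Cidea, Cideb, Cidec and Plin1 to Plin5, were found by symbol among the 24475 genes of the deposited table. They were measured in pancreatic islets of C57BL/6 mice by sequencing of polyA RNA in 10 libraries. Mice in the 5 libraries numbered 1 to 5 had received REGN1193, a blocking antibody against the glucagon receptor, and mice in the 5 libraries numbered 6 to 10 had received an isotype control antibody. The labels name no transgene, deletion, dose, duration, sex or age for either group and do not say whether each library came from a separate animal, so the spread between libraries may be technical in part. Levels are RPKM, read counts scaled by transcript length and library size, and are therefore comparable between genes. The members were chosen by symbol, but the 2 families were selected on the group difference already seen in these RPKM values, and for this reason the group differences of the 8 genes are descriptions. No p-value is given for a member, and where a member is said to be called or not by the fit over all genes, that is no evidence for a difference.

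The estimated depth was 14.55 to 18.03 megareads in the REGN1193 libraries and 12.28 to 14.82 megareads in the isotype libraries. Of the defining islet markers, those of beta cells had a summed level of 199240 to 356500 RPKM with REGN1193 and 298697 to 472690 RPKM with the isotype antibody. REGN1193 library 5 had a median within-group correlation of 0.943 over tested genes, whereas the other 9 libraries had 0.963 to 0.975. Acinar markers were present in every library, at 3500 to 11471 summed RPKM with REGN1193 and 2776 to 15649 with the isotype antibody.

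Cidea differed most clearly between the groups. It stood at 1.73, 2.03, 2.87, 2.70 and 1.56 RPKM in REGN1193 libraries 1 to 5, against 0.609, 0.970, 0.637, 0.577 and 0.401 RPKM in isotype libraries 6 to 10. Every REGN1193 library lay above every isotype library, an arrangement found in 1.14% of the 13450 genes tested, those averaging 0.5 RPKM or more, or in 1.99% when either direction is counted. The means were 2.18 ± 0.58 RPKM with REGN1193 and 0.638 ± 0.207 RPKM with the isotype antibody (SD, n = 5 each), a ratio of 3.41. On the log2(RPKM + 0.5) scale, which understates changes of low genes, the log2 fold change was 1.22 (SE 0.18). It was 1.23 without REGN1193 library 5 and isotype library 10 together.

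Cidea was 1 of 53 genes called higher with REGN1193 by limma at an adjusted p below 0.05, which is 0.394% of the genes tested. No member was among the genes called lower, which were 0.0149% of those tested, and the other tested members, Plin2 and Plin3, were not called. By size of fold Cidea was number 22 of the 53. Because the gene was chosen with this comparison in view, nothing is read from that call. It was not made when all 24475 genes were tested without a filter on low values. The number of genes called higher was 32 without REGN1193 library 2 or 3 and 31 without isotype library 9.

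The level of Cidea was low in both groups. The steps of the low RPKM values, with the transcript length chosen so that they fell on whole numbers, corresponded to about 34, 35, 53, 46 and 33 reads in the REGN1193 libraries, against 9, 14, 11, 10 and 6 reads in the isotype libraries. Exact Poisson intervals at 95%, which cover counting error only, were 1.07 to 2.19 RPKM for the lowest REGN1193 library and 0.531 to 1.63 RPKM for the highest isotype library. These 2 closest libraries are therefore not separated by counting precision alone. Of all genes in the table, 56.4% had a lower mean than Cidea in the REGN1193 group and 46.9% in the isotype group.

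**Figure D1:**
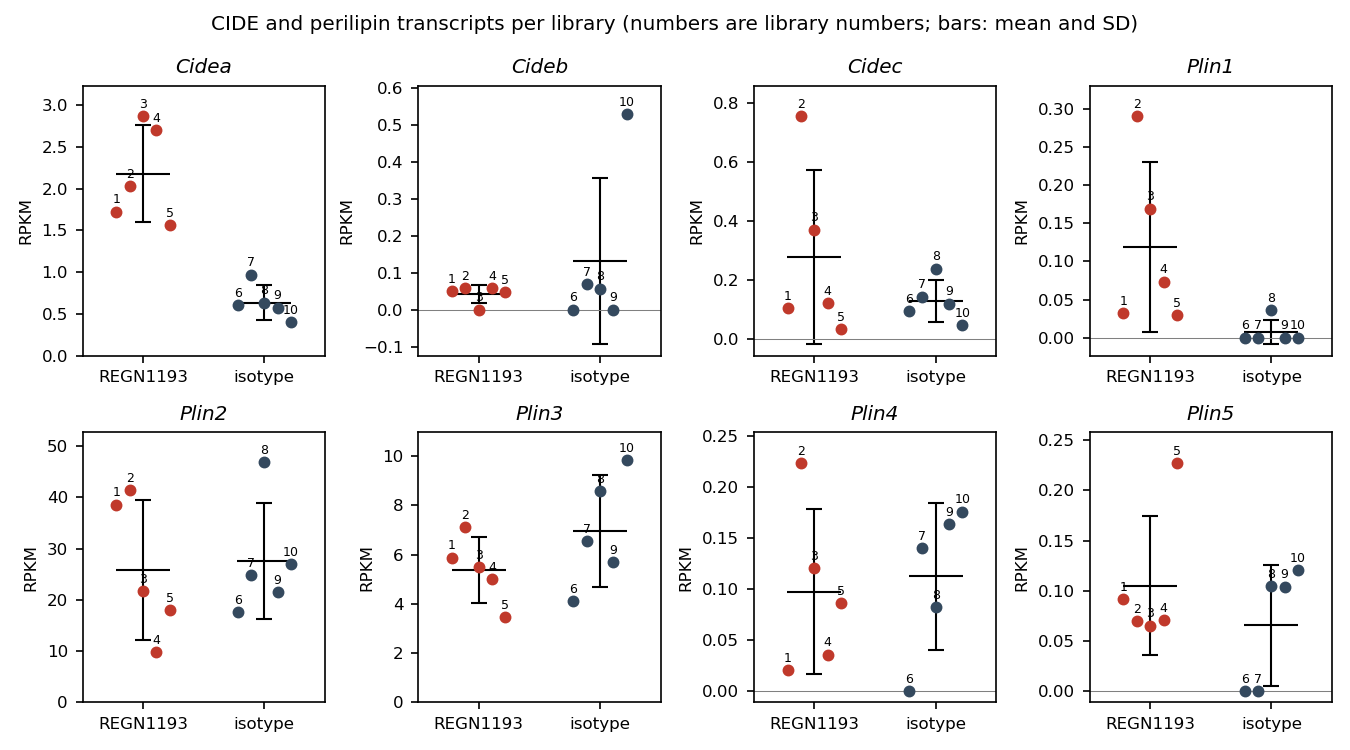
RPKM of each CIDE and perilipin gene in REGN1193 (red) and isotype control (dark) libraries, with the library number above each point and the mean and SD of 5 libraries as bars. The scales differ between panels. Cidea is the gene whose groups do not overlap, from 1.56 to 2.87 RPKM with REGN1193 and from 0.401 to 0.970 RPKM with the isotype antibody.

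Genes of the glucagon-producing alpha cell were also higher with REGN1193. Of 10 alpha cell markers 8 were called higher with REGN1193 and none lower, where 0.394% of all tested genes were called higher. Their median log2 fold change was 1.18 beside -0.07 for all tested genes. The list was chosen with earlier results of these data known, so these counts and the values below are descriptions. Pou3f4, which was not called, passed the filter only through the REGN1193 group (isotype mean 0.439 RPKM). Among the called markers were the proglucagon gene Gcg (2.39, SE 0.27, limma adjusted p = 0.00174), the thyroid hormone carrier Ttr (2.77, SE 0.22), the transcription factors Irx1 (1.20, SE 0.23) and Irx2 (1.16, SE 0.17), the vitamin D-binding protein Gc (1.06, SE 0.20), the chromatin ATPase Smarca1 (0.99, SE 0.13) and the kinase Wnk3 (1.39, SE 0.18). Without REGN1193 library 1, 2 or 3 or isotype library 9, 5 markers were called over all cell type lists, where 8 were called with all libraries. The summed level of the list was 55164 to 84271 RPKM with REGN1193 and 10187 to 18177 RPKM with the isotype antibody. Most of that sum was Gcg, at 50503 to 76928 RPKM with REGN1193 and 9513 to 17038 RPKM with the isotype antibody.

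Set against the mean log2 level of the 10 alpha cell markers, Cidea stood at -4.26 ± 0.30 in the REGN1193 libraries and -4.10 ± 0.20 in the isotype libraries (SD, n = 5 each). The ranges, -4.56 to -3.91 with REGN1193 and -4.43 to -3.91 with the isotype antibody, overlapped. The difference between the group means was -0.16, with a marker mean 1.39 higher with REGN1193. Its sign depended on the pseudocount, since it was 0.16 with a pseudocount of 0.1 and -0.37 with 1, alternatives chosen after seeing the data. In these bulk islets, more cells of a type and more RNA per cell cannot be told apart, and the part of the alpha cell markers in the level of Cidea was not tested. The 4 delta cell markers also had positive folds, none of them called, with sums of 3701 to 9711 RPKM with REGN1193 and 2047 to 4969 RPKM with the isotype antibody. The 5 isotype libraries stood in the same order for Cidea and for the marker mean, whereas in the REGN1193 group Cidea was highest in library 3 and the marker mean in library 2.

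**Figure D2:**
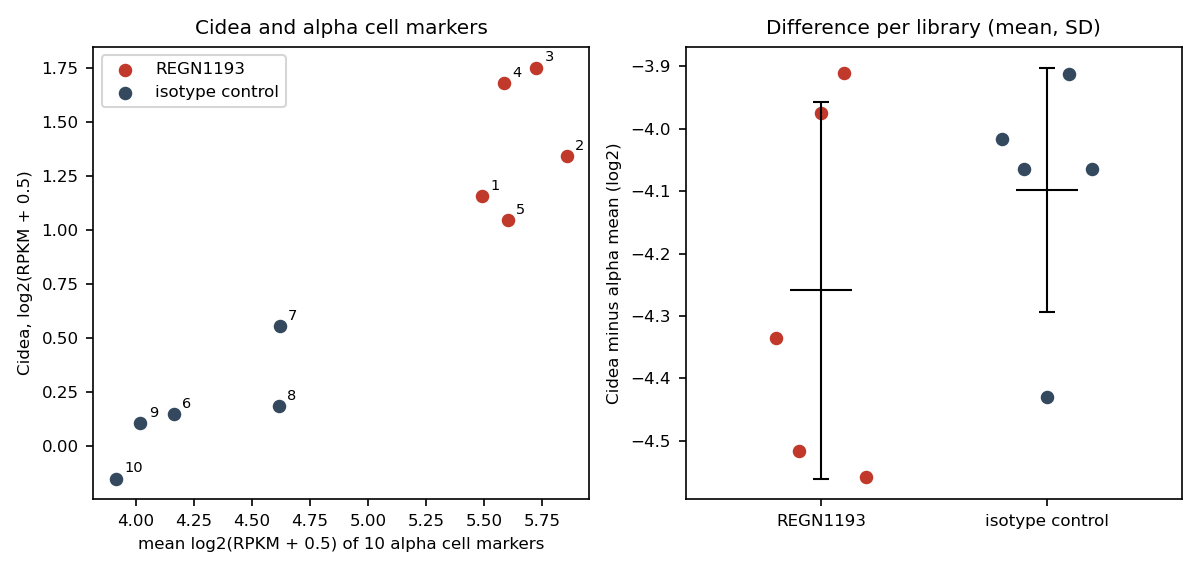
Left, Cidea against the mean of 10 alpha cell markers, both as log2(RPKM + 0.5), per library with library numbers. Right, the difference between them per library, with mean and SD of 5 libraries, -4.26 ± 0.30 with REGN1193 (red) and -4.10 ± 0.20 with the isotype antibody (dark); the groups separate in the left plot and overlap in the right plot.

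Cidea is a fat cell gene elsewhere, and of 9 adipocyte markers 5 stayed below 0.5 RPKM in every library. Of the others, Car3 reached 1.72 RPKM, with means of 0.688 RPKM with REGN1193 and 0.255 RPKM with the isotype antibody. Thrsp reached 0.968 RPKM, with means of 0.613 and 0.658 RPKM, and Cfd and Fabp4 are given below. Adipoq, which encodes the adipocyte hormone adiponectin, reached at most 0.165 RPKM in any library, Lep, the leptin gene, at most 0.0208 RPKM, and Ucp1, the uncoupling protein of brown fat, at most 0.125 RPKM. REGN1193 library 4 had the lowest summed adipocyte markers of all (6.07 RPKM). Fabp4 made up 4.90 RPKM of that sum, and Ucp1 was at its highest there. The part of fat cells in the level of Cidea was not tested. Over the whole list of 9 markers the sums were 6.07 to 32.9 RPKM with REGN1193 and 8.95 to 24.8 RPKM with the isotype antibody, most of it Fabp4, a fatty acid-binding protein that endothelial cells and macrophages also express. None of the 3 markers tested was called in either direction (0.409% of all tested genes were called). Cfd, the adipocyte protease adipsin, lay at 0.298 to 2.27 RPKM in REGN1193 libraries and 0 to 0.219 RPKM in isotype libraries. The groups did not overlap, with REGN1193 above, as in 1.14% of all tested genes. It differed by 1.28 on the log2 scale (SE 0.30, adjusted p = 0.163 by limma). With an isotype mean of 0.112 RPKM, Cfd passed the filter only through the REGN1193 group. It was named after its values were seen, so nothing is read from this difference.

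The chromosomal neighbours of Cidea were examined next. In GRCm38.p6 Cidea (Entrez 12683) lies on chromosome 18 from 67343564 to 67367794. Tubb6, a beta tubulin gene 22937 bases away, was at 12.6 ± 4.37 RPKM with REGN1193 and 11.3 ± 2.70 RPKM with the isotype antibody (SD, n = 5 each), with 0.10 on the log2 scale (SE 0.25) and no call. Impa2, an inositol monophosphatase gene on the other side, was below the filter at 0.359 ± 0.193 RPKM with REGN1193 and 0.492 ± 0.331 RPKM with the isotype antibody. The noncoding gene B430212C06Rik overlaps Cidea by 540 bases. The library kit does not mark strand, so their reads could be mixed there, but this gene reached at most 0.113 RPKM.

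Plin2 was the most abundant member in every library. It stood at 38.6, 41.4, 21.6, 9.74 and 17.9 RPKM in REGN1193 libraries 1 to 5, against 17.6, 24.8, 46.9, 21.5 and 27.0 RPKM in isotype libraries 6 to 10. Libraries 1 and 2 of the first group and library 8 of the second were high, library 4 was low, and the groups overlapped over most of their range. The means were 25.9 ± 13.6 RPKM with REGN1193 and 27.6 ± 11.4 RPKM with the isotype antibody (SD, n = 5 each). The log2 fold change of -0.19 (SE 0.37) was not called, and with 1 library left out it ran from -0.40 to 0.11. It was above 0 without REGN1193 library 4 (0.11) or isotype library 8 (0.02). The standard error leaves room for a difference in either direction. A transcribed pseudogene, Gm12551, overlaps Plin2 by 5312 bases on chromosome 4 and is not analysed here.

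Plin3, a perilipin that shuttles between cytosol and droplet, came second in every library. Its levels were 5.88, 7.13, 5.50, 5.01 and 3.45 RPKM in REGN1193 libraries 1 to 5, against 4.12, 6.54, 8.58, 5.70 and 9.83 RPKM in isotype libraries 6 to 10. The isotype group held both higher values and the wider spread, with overlap between the groups. The means were 5.39 ± 1.34 RPKM with REGN1193 and 6.96 ± 2.27 RPKM with the isotype antibody (SD, n = 5 each). On the log2 scale Plin3 differed by -0.32 (SE 0.23) and was not called, and the value was -0.05 without REGN1193 library 5 and isotype library 10.

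Within single libraries the order of the expressed members was stable. Plin2 exceeded Plin3 by 1.95 to 6.56 times in REGN1193 libraries and by 2.75 to 5.46 times in isotype libraries. Plin2 supplied 65.3% to 86.5% of the summed perilipin RPKM with REGN1193 and 72.7% to 84.2% with the isotype antibody. Plin3 exceeded Cidea by 1.85 to 3.51 times with REGN1193 and by 6.74 to 24.5 times with the isotype antibody. Cidea was the highest of the CIDE genes in all libraries except isotype library 10, where Cideb was higher. Cidea made up 71.4% to 95.2% of the summed CIDE RPKM with REGN1193 and 41.0% to 86.8% with the isotype antibody.

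The perilipins differed widely in abundance. For comparison, the promoters of the expressed Plin2 and Plin3 and of Plin1 and Plin5, which were near 0, are shown. The promoter of Plin4, also near 0, is not shown. Each run is the RefSeq promoter window of GRCm38.p6, from 250 bases before to 50 after the outermost start that the promoter table lists for the gene, on the minus strand, and capitals mark CpG dinucleotides (CG, the same on both strands). The windows are chr4:86670010-86670309 for Plin2, chr17:56290462-56290761 for Plin3, chr7:79732727-79733026 for Plin1 and chr17:56117499-56117798 for Plin5. For Plin2, Plin1 and Plin5 that start lies inside the gene's annotated span.
Plin2: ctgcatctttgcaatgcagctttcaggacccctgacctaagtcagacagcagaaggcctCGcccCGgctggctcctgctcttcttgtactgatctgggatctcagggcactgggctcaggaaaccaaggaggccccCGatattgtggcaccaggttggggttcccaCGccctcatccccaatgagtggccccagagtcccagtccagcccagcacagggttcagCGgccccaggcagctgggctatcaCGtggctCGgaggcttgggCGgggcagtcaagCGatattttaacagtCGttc
Plin3: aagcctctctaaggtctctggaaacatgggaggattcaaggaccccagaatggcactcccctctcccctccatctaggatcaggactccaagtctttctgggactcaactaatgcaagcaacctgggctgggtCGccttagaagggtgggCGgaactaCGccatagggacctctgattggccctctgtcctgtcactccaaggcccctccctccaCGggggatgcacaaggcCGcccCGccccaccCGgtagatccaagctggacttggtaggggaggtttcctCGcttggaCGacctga
Plin1: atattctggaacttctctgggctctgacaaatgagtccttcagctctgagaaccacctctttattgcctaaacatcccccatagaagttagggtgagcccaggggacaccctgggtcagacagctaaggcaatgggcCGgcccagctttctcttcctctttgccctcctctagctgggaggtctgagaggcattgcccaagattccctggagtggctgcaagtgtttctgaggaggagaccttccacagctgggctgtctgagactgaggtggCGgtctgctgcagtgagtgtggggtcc
Plin5: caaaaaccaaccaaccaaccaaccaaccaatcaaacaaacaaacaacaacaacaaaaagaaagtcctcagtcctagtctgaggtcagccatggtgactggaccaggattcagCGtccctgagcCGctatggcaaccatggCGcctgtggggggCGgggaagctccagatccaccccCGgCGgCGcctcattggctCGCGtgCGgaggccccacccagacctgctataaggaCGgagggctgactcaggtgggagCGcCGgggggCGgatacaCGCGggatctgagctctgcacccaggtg

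CpG number did not follow the level of these genes. Plin2 had 10 CpG in 300 bases and Plin3 had 9, more than 42.7% and 40.6% of 18148 gene promoters in the same table. Plin1 had 2, more than 11.5% of promoters, yet Plin5, which was also near 0, had 16, more than 54.9%. Cidec had 6, and Cideb and Plin4 had 7 each. Over all genes a mean of at least 0.5 RPKM was reached by 19.3% of those with at most 5 CpG, 57.9% of those with 6 to 15 and 86.4% of those with over 15. Of the 8 members 7 matched an entry.

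The other 5 members, Cideb, Cidec, Plin1, Plin4 and Plin5, had means below 0.5 RPKM and were not tested. Per library they rested on 0 to 19 estimated reads, so only gross differences could be seen. In GRCm38.p6 Cideb (Entrez 12684) spans 55754052 to 55758424 on chromosome 14, Cidec (14311) 113424634 to 113435760 on chromosome 6, and Plin1 (103968) 79721164 to 79732904 on chromosome 7. On chromosome 17, Plin4 (57435) spans 56100587 to 56109948, Plin5 (66968) 56111597 to 56117606 and the expressed Plin3 (66905) 56278962 to 56290511. Plin2 (11520) spans 86626910 to 86670217 on chromosome 4. Plin3, Plin4 and Plin5 share a stretch of 189925 bases on chromosome 17, with 1648 bases between Plin4 and Plin5, but only Plin3 was expressed above the filter.

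Plin1, the perilipin that guards the large droplet of fat cells, stood at 0.0318, 0.291, 0.169, 0.0734 and 0.0296 RPKM in REGN1193 libraries 1 to 5, against 0, 0, 0.0362, 0 and 0 RPKM in isotype libraries 6 to 10. That is about 17 reads over the REGN1193 libraries and 1 read over the isotype libraries, and the groups overlapped. Cidec, the CIDE protein of white fat, stood at 0.104, 0.755, 0.370, 0.120 and 0.0323 RPKM in the REGN1193 libraries, against 0.0924, 0.142, 0.2375, 0.118 and 0.0456 RPKM in the isotype libraries. The lncRNA gene Gm52871 overlaps it by 1256 bases. The Cidec mean of 0.276 RPKM with REGN1193 rested on library 2, without which it was 0.157 RPKM beside 0.127 RPKM with the isotype antibody. Plin4, an adipocyte and muscle perilipin, ranged from 0.0205 to 0.223 RPKM with REGN1193 and from 0 to 0.176 RPKM with the isotype antibody, about 44 reads in each group.

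All 3 of these genes were highest in REGN1193 library 2 and, within that group, second highest in library 3. REGN1193 library 2 was also highest of all 10 in Retn, the resistin gene (0.3485 RPKM), and Cfd (2.27 RPKM). The same held for Fabp4 (27.4 RPKM) and Car3, a carbonic anhydrase abundant in fat (1.72 RPKM). Adipoq was nearly level between library 2 and isotype library 8 (0.1646 and 0.1641 RPKM). Lep was nearly level in REGN1193 libraries 2, 3 and 5 (0.0208, 0.0193 and 0.0169 RPKM). Of the remaining markers, Slc7a10 was nearly level between library 2 and isotype library 8 (0.0347 and 0.0346 RPKM), Thrsp was highest in REGN1193 library 1 (0.968 RPKM, against 0.847 RPKM in library 2) and Ucp1 in REGN1193 library 4 (0.125 RPKM, against 0.0411 RPKM in library 2). The part of adipocyte RNA in these values was not tested. Isotype library 8, nearly level with REGN1193 library 2 in Adipoq, had the highest Cidec and the only Plin1 read of its group. Plin4 did not share this, with 0.0820 RPKM in isotype library 8. Within that group it was highest in isotype library 10 (0.1755 RPKM), where Adipoq was at 0 RPKM.

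**Figure D3:**
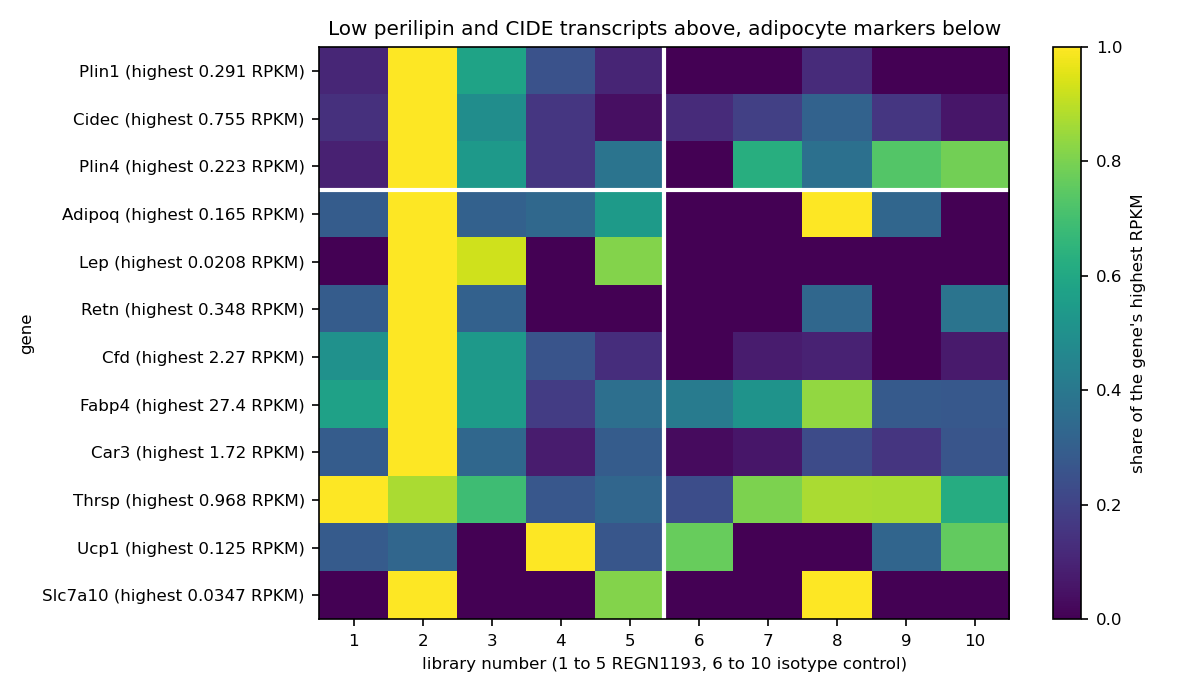
RPKM of Plin1, Cidec and Plin4 (upper rows) and of the 9 adipocyte markers (lower rows) in each library, as a share of the gene's own highest value, from 0 (dark) to 1 (yellow). Library 2 of the REGN1193 group holds the highest value of Plin1 (0.291 RPKM), Cidec (0.755 RPKM) and Plin4 (0.223 RPKM) and of several adipocyte markers.

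Cideb, which in liver takes part in the lipid loading of very-low-density lipoprotein, was at 0.0504, 0.0576, 0, 0.0582 and 0.0470 RPKM in REGN1193 libraries 1 to 5, against 0, 0.0687, 0.0574, 0 and 0.530 RPKM in isotype libraries 6 to 10. Apart from isotype library 10, with about 8 reads, each library held 0 or 1 read. The mean was 0.0426 RPKM with REGN1193 and 0.131 RPKM with the isotype antibody, or 0.0315 RPKM without isotype library 10. Cideb overlaps Nop9 by 1583 bases and Ltb4r2 by 503 bases on chromosome 14, and unstranded reads cannot be assigned there with certainty; Nop9 was highest in the same library, at 4.95 RPKM. Plin5, which ties droplets to mitochondria, ranged from 0.0650 to 0.227 RPKM with REGN1193 and from 0 to 0.120 RPKM with the isotype antibody, about 17 and 9 reads.

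The extremes of Plin2 coincided with those of markers of other cells. In the REGN1193 group the summed level of 8 macrophage and leukocyte markers was highest in library 2 (612 RPKM) and lowest in library 4 (43.5 RPKM), the libraries with the highest and lowest Plin2. In the isotype group it was highest in library 8 (500.4 RPKM) and lowest in library 6 (76.0 RPKM), again those with the highest and lowest Plin2. The 8 mesenchymal markers behaved alike, with 176 RPKM in library 2 and 14.5 RPKM in library 4 of the REGN1193 group, and 167 RPKM in library 8 and 17.5 RPKM in library 6 of the isotype group. Between the extremes the order was not the same, since REGN1193 library 1 had more Plin2 than library 3 (38.6 and 21.6 RPKM) at a lower macrophage and leukocyte sum (165 and 203 RPKM). None of the 7 macrophage and leukocyte markers or 8 mesenchymal markers tested was called between the groups. Of all tested genes 0.409% were called, so nothing is read from this. The part of these cells in the Plin2 level was not tested.

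**Figure D4:**
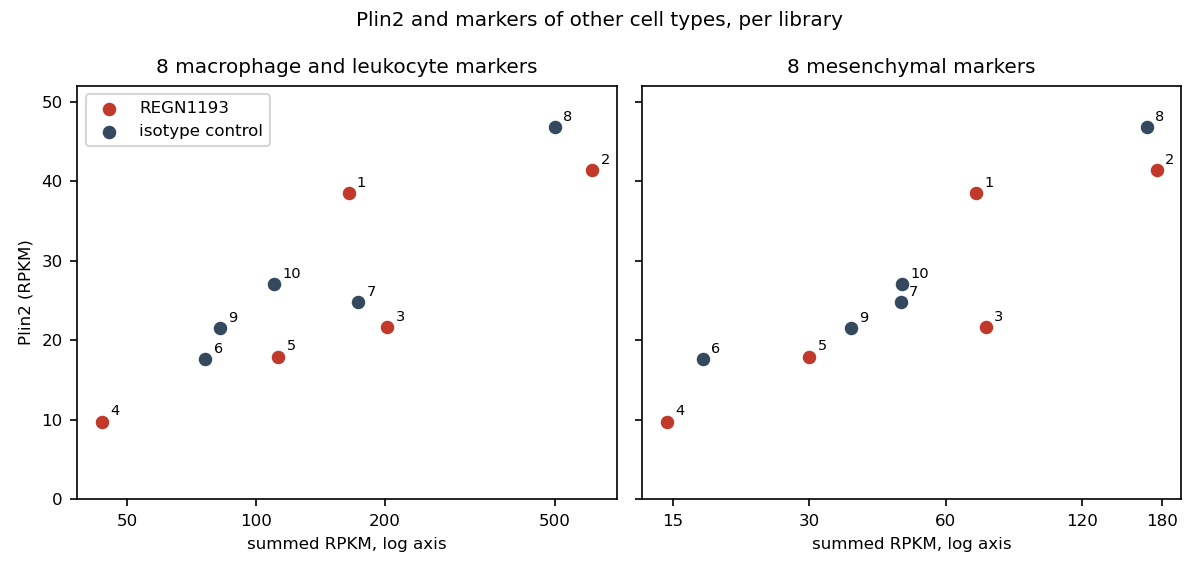
Plin2 (RPKM) against the summed RPKM of 8 macrophage and leukocyte markers (left) and 8 mesenchymal markers (right, both on log x axes), for each REGN1193 (red) and isotype control (dark) library with its number. In both groups the library with the highest marker sum (2 with REGN1193, 8 with the isotype antibody) had the highest Plin2, 41.4 and 46.9 RPKM.

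The genes whose levels followed a member most closely over the 10 libraries, after removal of the group means, differed between the members. With Plin2 these were Layn, a hyaluronan receptor (r = 0.98), Clec4d, a lectin receptor of myeloid cells (r = 0.98), and Penk, the proenkephalin gene (r = 0.97). Plin3 was followed by Mpp1, a membrane scaffold protein gene (r = 0.96), Hn1 (r = 0.95) and Nradd (r = 0.95). For Cidea they were Dmwd (r = 0.96), Rab11fip3, a partner of the recycling GTPase Rab11 (r = 0.94), and Atp2a3, a calcium pump of the endoplasmic reticulum (r = 0.93), none of which was called between the groups. Among the members themselves the within-group correlation was 0.63 for Plin2 with Plin3, -0.30 for Plin2 with Cidea and -0.01 for Plin3 with Cidea. The genes named with each member are the highest among 13450 genes over few libraries, and all these correlations serve as description.

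The other genes of droplet metabolism were described by lists, which were chosen with earlier results of these data known. Of 96 genes in 7 lists, 74 were tested, 1 was called higher and none lower, where 0.409% of all tested genes were called. It was Pdk4, the kinase that switches off pyruvate dehydrogenase and a target of the PPAR receptors, at 25.2 ± 3.45 RPKM with REGN1193 and 7.76 ± 1.47 RPKM with the isotype antibody (SD, n = 5 each). Pdk4 differed by 1.65 on the log2 scale (SE 0.15), with an adjusted p of 0.000393 in limma. At an unadjusted p below 0.05 limma counted 6 of the 74, Pdk4 included, and 944 of all 13450 tested genes. The list medians lay between -0.15 and -0.05, close to the median of -0.07 over all tested genes. After median centring the lipolysis, fatty acid uptake, fatty acid oxidation and lipoprotein medians were above 0, at 0.02, 0.03, 0.02 and 0.01. Those of droplet assembly, the CIDE-related nucleases and triglyceride synthesis stayed at -0.07 each, beside 0.01 for all tested genes. No set test was run, so no direction is read from the lists.

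Among 13 genes of droplet assembly and coat, 12 had negative folds, as did 8938 of all 13450 tested genes. They included Hsd17b13, a liver droplet protein (-1.14, SE 0.50), Ldah, a droplet-associated hydrolase (-0.23, SE 0.11), and Pcyt1a, the rate-limiting enzyme of phosphatidylcholine synthesis (-0.19, SE 0.09). Hsd17b13 had a log2 fold change of -0.62 without isotype library 10, which held 23.0 RPKM. Of 12 genes of triglyceride and sterol ester synthesis, 10 were negative, among them Dgat1, which makes triglyceride (-0.28, SE 0.12), and the acyltransferases Agpat2 (-0.30, SE 0.13) and Agpat3 (-0.19, SE 0.11). The nuclease pair Dffa (-0.15, SE 0.09) and Dffb (-0.15, SE 0.23), which carry the CIDE-N domain, stood close together.

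For 11 genes of lipolysis, Mgll, monoglyceride lipase, had -0.65 (SE 0.27), or -0.39 without isotype library 10, and Abhd5, the activator of adipose triglyceride lipase, had -0.19 (SE 0.10). Abhd6, another monoglyceride lipase, had -0.25 (SE 0.12). Uptake and activation were represented by 14 tested genes, with the transport proteins Slc27a2 at 0.62 (SE 0.42) and Slc27a4 at -0.26 (SE 0.18) and the binding protein Fabp3 at -0.23 (SE 0.15). In the list of PPAR regulators and oxidation, 17 genes tested, the peroxisomal enzyme Ehhadh had -0.32 (SE 0.17). The 5 lipoprotein genes tested held Sar1b (-0.26, SE 0.15) and Sar1a (-0.24, SE 0.16) of vesicle budding and the lipid transfer gene Mttp (0.09, SE 0.14). Apart from Pdk4 none of the genes in these lists was called.

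**Figure D5:**
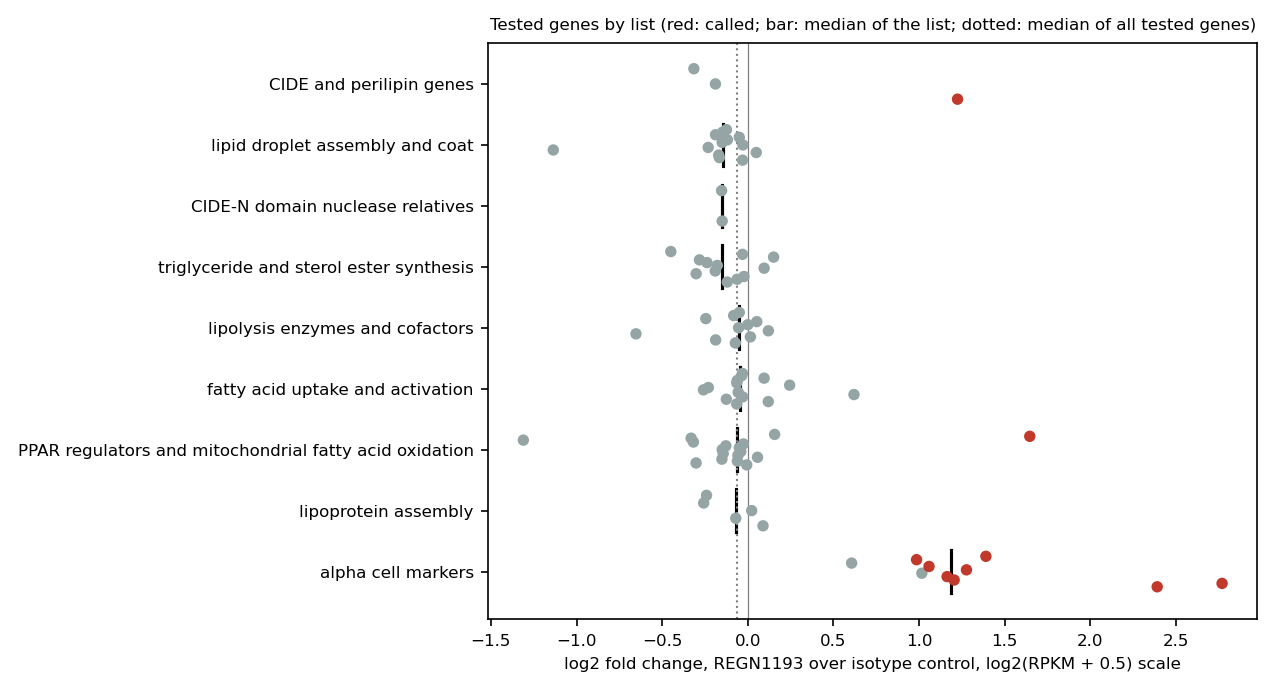
Log2 fold change of REGN1193 over isotype control on the log2(RPKM + 0.5) scale for the 3 tested CIDE and perilipin genes and for the tested genes of 7 lipid lists and the alpha cell list, with called genes in red, list medians as bars and the median of all tested genes (-0.07) dotted. Cidea is at 1.22, and Pdk4, at 1.65, is the called gene of the lipid lists.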

How the data were processed

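Islets had been separated on a Histopaque gradient, and polyA RNA was made into libraries with Nextera XT, which keeps no strand information, per the labels' protocols. The authors deposited 1 table of RPKM values for 24475 genes and 10 libraries. The submitters' processing notes name GRCm38, mm10, CASAVA 1.8.2 and FastQC without roles; for the aligner and counter, a name is not given in the sources used here. Depth was estimated from the steps of low RPKM values of 17505 genes with a single GENCODE M21 length; between 70.2% and 74.5% of these values lay within 0.1 of a whole read. For members, a step counted as whole within 0.15 of a read; Plin2 and Plin3 were too abundant for this. The 13450 genes averaging 0.5 RPKM or more were fitted with limma 3.58.1 in R 4.3.3 on log2(RPKM + 0.5), with a variance trend and Benjamini-Hochberg adjustment at 0.05; the fit and the depth step were tested on simulated data. Python 3.11.15, numpy 2.4.6, pandas 2.3.3, scipy 1.17.1 and matplotlib 3.10.9 were used otherwise. Positions and promoters came from RefSeq on GRCm38.p6. The members and lists were chosen with earlier results of these data known. Named genes were the members, every called list gene, up to 3 genes of each pathway list with the smallest p, and the 3 genes most like each tested member; some genes that this rule names are not reported here. Alternatives were other pseudocounts, filters, scalings, variance models and weights, and leaving out libraries.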

Additional observations from a re-analysis of the deposited data

Results flagged for a closer look

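In 4 of 16 groups of 5 libraries, 1 value of a member stood far from the other 4. For continuous values chance flags about 1 in 20 groups. That rate does not hold here, since all 4 rest on few reads and 1 differing read can be enough for a flag. Cideb was highest in isotype library 10 at 0.530 RPKM, about 8 reads. The same library was highest in Hsd17b13 (23.0 RPKM) and Mgll (4.22 RPKM), which was seen after the fact, and the cause was not tested. In the REGN1193 group Cideb was lowest in library 3, at 0 RPKM, where the other 4 libraries held about 1 read each. Plin1 was highest in isotype library 8, at 0.0362 RPKM or about 1 read, with 0 in the other 4. Plin5 was highest in REGN1193 library 5 at 0.227 RPKM, about 8 reads, where the other 4 held 2 or 3.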

How the results depend on the processing

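The number of genes called higher was 121 with array weights, 23 when only genes averaging 5 RPKM or more were tested, and 31 to 50 with 1 library left out. The number called lower was 0 with that stricter filter, 5 with quantile normalization, 1 without a variance trend, 61 with array weights, 5 without REGN1193 library 5 and isotype library 10, and 0 to 20 with 1 library left out. The number of CIDE and perilipin genes called was 0 without a filter and 0 with the stricter one, which Cidea does not pass; with 1 library left out it was 1 to 1. Cidea had a log2 fold change of 1.63 with a pseudocount of 0.1 and 1.14 to 1.32 with 1 library left out. The Cidea difference relative to the alpha cell markers changed sign, to 0.16, with a pseudocount of 0.1, which was chosen after seeing the data. Cell type markers called numbered 3 without a filter, 14 with array weights and 5 to 7 with 1 library left out. Plin2 and Plin3 moved by less than the spread between libraries in all 21 alternatives, and Pdk4 was called in all 21. Members below 0.5 RPKM are limited by read number. No paired analysis was run, because the labels name no pairing of libraries between the groups.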
